A study of Mus musculus with 18 samples.

Results

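Rps24 (ENSMUSG00000025290) encodes ribosomal protein eS24 of the small ribosomal subunit. It was described here through its 12 annotated transcripts in 18 RNA-seq libraries of sorted mouse bone marrow cells, as 1 of 53458 genes quantified. The gene was chosen by its measured values in these libraries: the level of transcripts that hold a 20-nt exon differed between populations and genotypes, so the Rps24 values below are a description and carry no test. The libraries cover 3 populations of C57BL/6 mice. Hematopoietic stem cells (HSC), sorted as CD48- CD150+ cells of the lineage-negative fraction with Sca-1 and c-kit, were compared with preMegE, progenitors of the megakaryocyte and erythroid lineages (CD150+ CD105-), and with preCFU-E (CD150+ CD105+), which are further along the erythroid path. Both progenitors lack Sca-1, CD41 and FcgRII/III. Each population came from Ptbp1 fl/fl animals, called WT here, in which the Ptbp1 gene carries recombination sites but is intact, and from animals labelled Ptbp1 KO, called KO. Each of the 6 groups held 3 biological replicates. The labels do not give the age of the animals or the Cre driver behind the KO.

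Ribosomal proteins assemble with ribosomal RNA into the small and large subunits, and eS24 takes part in the maturation of the small-subunit RNA. Variants of the human gene RPS24 are a cause of Diamond-Blackfan anaemia, an inherited failure of red cell production, as are variants of several other ribosomal protein genes. The last coding exons of Rps24 are very short and are spliced differently between tissues, which changes only the last residues of the protein. PTBP1, the polypyrimidine tract-binding protein deleted in the KO, is an RNA-binding protein that often keeps exons out of the mature mRNA, and PTBP2 and PTBP3 are its paralogues.

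The libraries held 15956408 to 29226287 estimated reads each, of which 4956 to 19361 were assigned to Rps24. No 2 replicates agreed within counting error (chi-square per degree of freedom 13.6 to 160). Levels are given as CPM, the reads of a gene per library size on a common scale. Ptbp1 was at 90.3 to 108 CPM in KO HSC against 196 to 221 in WT HSC, at 187 to 232 against 595 to 787 in preMegE, and at 298 to 318 against 1116 to 1345 in preCFU-E; the labels do not say which part of the gene is deleted. The summed level of 12 HSC marker genes had medians of 2296, 1287 and 285 CPM in WT HSC, preMegE and preCFU-E, and that of 13 erythroid markers had medians of 512, 2493 and 11572. The 8 T and NK cell markers summed to 209 to 277 CPM in preMegE, and to 24.3 to 44.8 CPM in the other populations. Nkg7 alone carried this sum, at a mean of 243 CPM in WT and 237 CPM in KO preMegE, and of the 5 markers tested for WT preMegE against HSC only Nkg7 had a positive log2 change (median -2.08). All HSC libraries had high Xist (6434 to 8617 CPM) and all progenitor libraries had at most 1.09 CPM, with Eif2s3y at 38.3 to 85.2 CPM, so that the sex of the animals and the step from HSC to preMegE cannot be told apart in any comparison below.

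Rps24 lies on chromosome 14 at 24487125 to 24496959, plus strand (GRCm38, GENCODE M21). Of its 12 transcripts, 5 are annotated as protein coding, 2 as retained introns and 5 as other processed transcripts. The coding transcripts share exon 4 (24493383 to 24493493) and differ after it. Rps24-202 and Rps24-207 join exon 4 to a 20-nt exon, Rps24-205 puts an 18-nt exon between them, and Rps24-210 joins exon 4 directly to the last exon. The 2 short exons are shown because each carries the stop codon of the transcripts that use it first, in capitals.
20-nt exon, chr14:24495430-24495449: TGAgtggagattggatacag
18-nt exon, chr14:24494052-24494069: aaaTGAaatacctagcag

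The coding ends of the transcripts are shown from the last 12 bases of exon 4, with the stop codon in capitals, since they are the part of the message that the exon choice changes; all sequences are from the GENCODE M21 transcripts.
Rps24-202: gctggcaaaaagTGA
Rps24-205: gctggcaaaaagaaaTGA
Rps24-210: gctggcaaaaagccaaaggagTAG
The 20-nt exon thus ends the coding sequence with its first codon, after 130 codons in Rps24-202 and 118 annotated codons in Rps24-207. Set against Rps24-202, the 18-nt exon adds 1 codon (131), and joining over both adds 3 codons from the last exon (133).

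PTBP1 binds pyrimidine-rich RNA, so the 100 bases before each of the alternative exons were read from a transcript that retains the intron and searched for TCTT and CTCTCT on both strands, with matches in capitals.
Before the 20-nt exon, chr14:24495330-24495429: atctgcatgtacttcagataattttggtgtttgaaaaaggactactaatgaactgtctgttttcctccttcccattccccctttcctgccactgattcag
Before the 18-nt exon, chr14:24493952-24494051: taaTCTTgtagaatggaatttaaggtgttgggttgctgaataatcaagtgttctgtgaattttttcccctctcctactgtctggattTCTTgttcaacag
Before the last exon, chr14:24495675-24495774: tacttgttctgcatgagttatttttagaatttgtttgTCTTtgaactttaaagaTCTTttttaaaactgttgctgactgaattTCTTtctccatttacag
On the sense strand, TCTT had 0, 2 and 3 matches in the 3 windows, and 58.6% of 14904 windows of the same length read the same way from other retained-intron transcripts held at least 1. CTCTCT had 0 matches in all 3 windows, against 10.3% of the other windows with at least 1. On the other strand, TCTT had 1 match, before the last exon. Pyrimidines made up 63%, 57% and 63% of the 3 windows, against a median of 55%. These counts describe the letters of the windows and say nothing of binding.

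**Figure D1:**
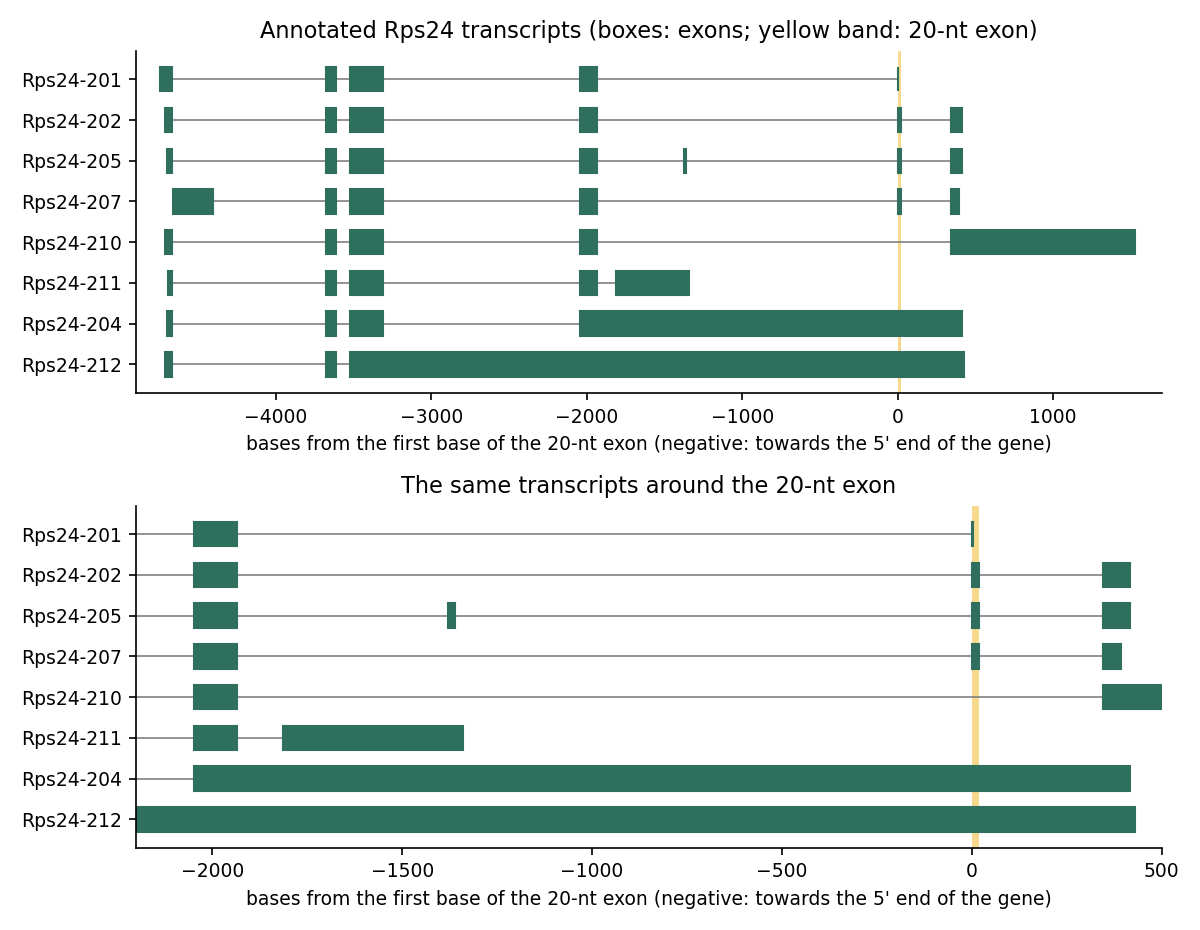
Exons (boxes) of 8 annotated Rps24 transcripts against the distance in bases from the first base of the 20-nt exon, over the gene body (top) and around the exon (bottom). Rps24-201 stops 3 bases into the 20-nt exon, and Rps24-210, the transcript that joins over it, ends in a last exon of 1185 bases against 71 in Rps24-202.

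Inclusion of the 20-nt exon was computed as the percent spliced in: the summed TPM (reads scaled to transcript length and to a common library total) of Rps24-202, Rps24-205 and Rps24-207 over that sum plus Rps24-210. In WT cells it was near complete in HSC, intermediate in preMegE and low in preCFU-E, and it was higher in KO than in WT cells of both progenitor populations. The WT HSC libraries stood at 97.6%, 97.0% and 97.0%, and the KO HSC libraries at 98.8%, 97.8% and 97.7%. In preMegE the WT libraries stood at 58.1%, 51.7% and 61.2% and the KO libraries at 86.2%, 89.5% and 90.6%. In preCFU-E the WT libraries stood at 6.75%, 6.70% and 8.38% and the KO libraries at 27.9%, 25.7% and 22.7%. Every KO library lay above every WT library of its population, by a narrow margin in HSC and a wide one in the progenitors. Marker levels differed between genotypes without overlap too: 12 HSC markers summed to 1984 to 2167 CPM in KO HSC against 2268 to 2332 in WT, and 13 erythroid markers to 321 to 452 CPM against 474 to 539. In the progenitors, 10 megakaryocyte markers summed to 141 to 189 CPM against 232 to 281 in preMegE and to 25.8 to 29.2 CPM against 40.6 to 49.4 in preCFU-E. The 10 macrophage markers summed to 5.58 to 7.86 CPM against 10.7 to 16.2 in preMegE and to 5.18 to 6.88 CPM against 9.26 to 13.0 in preCFU-E. Their part in the exon values was not tested. Being bulk samples, these values cannot tell a change within cells from a change in the mix of cells, nor fewer cells of a type from less RNA per cell.

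The group means were 97.2% ± 0.39 (SD, n = 3) and 98.1% ± 0.61 in WT and KO HSC, 57.0% ± 4.84 and 88.8% ± 2.30 in preMegE, and 7.28% ± 0.956 and 25.5% ± 2.60 in preCFU-E. KO minus WT was 0.897 percentage points in HSC (SE 0.418; 0.547 without HSC KO 1), 31.7 points in preMegE (SE 3.09) and 18.2 points in preCFU-E (SE 1.60). Along the WT path inclusion was 40.2 points lower in preMegE than in HSC (first minus second -40.2, SE 2.80) and then 49.8 points lower in preCFU-E (-49.8, SE 2.85). Along the KO path the same steps were -9.31 points (SE 1.38) and -63.3 points (SE 2.01). With Rps24-201 left out, as here, inclusion was thus retained further along the path in KO cells. Most of the KO drop then lay between preMegE and preCFU-E. With Rps24-201 counted as joining over the exon, the KO steps were -44.0 and -20.9 points. With Rps24-201 counted as containing the exon, they were -1.53 and -1.84 points. Whether the KO difference itself differed between populations was not tested.

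**Figure D2:**
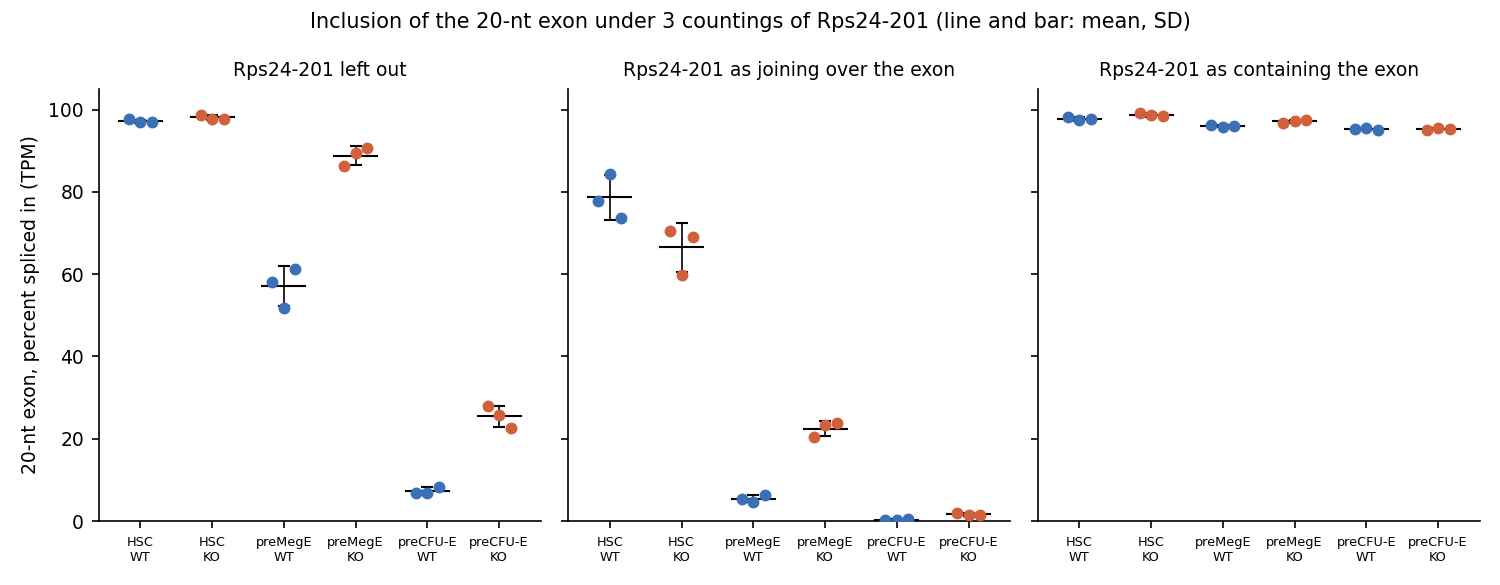
Percent spliced in of the 20-nt exon (vertical axis) in each of 3 libraries per group, with the mean and SD, when Rps24-201 is left out (left), counted as joining over the exon (middle) or counted as containing it (right). WT preMegE lies at 57.0% in the left panel and at 5.39% in the middle panel, and in the right panel all group means lie between 95.3% and 98.7%.

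These percentages rest on how one transcript is read. As annotated, Rps24-201 joins exon 4 to the first 3 bases of the 20-nt exon and ends there, and only Rps24-210 joins over the exon. Rps24-201 lacks the exon's other 17 bases and the last exon, and starts 37 bases before Rps24-202. With 3 bases in the exon, the reads assigned to Rps24-201 show little of the exon choice. It held 17.8% ± 5.27 (SD, n = 3) of the Rps24 TPM in WT HSC and 30.2% ± 5.52 in KO HSC, 90.2% ± 0.739 and 74.1% ± 1.38 in WT and KO preMegE, and 94.6% ± 0.287 and 93.4% ± 0.364 in WT and KO preCFU-E. It was therefore left out above, and the main percentages describe the remaining coding transcripts, a small share of Rps24 in the progenitors. Rps24-201 was also counted as joining over the exon, which its annotated model does not do. This gave 78.7% and 66.5% in WT and KO HSC, 5.39% and 22.5% in preMegE, and 0.374% and 1.60% in preCFU-E. KO HSC then lay below WT HSC. Counted as containing the exon, Rps24-201 gave 95.3% to 98.7% in all groups, and the preCFU-E groups overlapped. Rps24-210 is also the only coding transcript with the long last exon, so reads from that 3′ end go to it whether or not the exon before was used. Shares of estimated reads, which do not divide by length, gave 85.6% and 89.8% in HSC, 18.1% and 56.3% in preMegE and 1.64% and 5.72% in preCFU-E, with the HSC groups overlapping. Both ways of counting Rps24-201 were chosen after seeing the data. Reads over the splice junctions were not analysed here.

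Rps24-202, the short form that holds the 20-nt exon, was at 459, 446 and 442 TPM in the WT HSC libraries and at 434, 358 and 458 in the KO HSC libraries, which overlapped. In preMegE it was at 103, 114 and 151 TPM in WT and at 417, 682 and 609 in KO, 4.64-fold higher in the KO mean. In preCFU-E it was at 3.79, 3.11 and 2.97 TPM in WT and at 28.2, 23.3 and 19.6 in KO, 7.21-fold higher. KO preMegE overlapped KO HSC, whereas WT preMegE lay 3.66-fold below WT HSC without overlap. Between preMegE and preCFU-E the mean was 37.3-fold lower in WT and 24.0-fold lower in KO. In WT preCFU-E these values rest on 12.6 to 32.1 estimated reads per library.

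Rps24-205, the form with both short exons, was high in HSC and low elsewhere. It was at 167, 129.6 and 154 TPM in WT HSC and at 313, 252 and 289 in KO HSC, 1.89-fold higher in the KO mean with no overlap. It was at 2.43 to 7.01 TPM in WT preMegE and 12.6 to 23.5 TPM in KO preMegE. In preCFU-E it received 1.99 and 1.77 reads in 1 WT and 1 KO library and 0 in the other 4, which allows Rps24-205 a share of up to 0.0329% of the Rps24 reads in the shallowest of them (3 reads, counting error only). Among the transcripts that hold the 20-nt exon, those with the 18-nt exon made up 25.0% ± 2.18 (SD, n = 3) in WT HSC and 40.5% ± 1.86 in KO HSC, 15.5 points higher (SE 1.66). In preMegE the share was 3.73% ± 1.27 in WT and 2.77% ± 0.647 in KO, which overlapped. The 18-nt exon thus differed between genotypes in HSC, where the 20-nt exon was near complete in both. Rps24-211, a processed transcript whose last exon covers the 18-nt exon, had the same order: 22.04 TPM ± 3.39 and 42.04 ± 3.11 in WT and KO HSC, 3.54 ± 0.168 and 11.5 ± 4.93 in preMegE, and at most 0.181 in preCFU-E.

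Rps24-210, the form that joins over the exon, was low in HSC and high in the progenitors. It was at 15.2, 18.1 and 18.8 TPM in WT HSC and at 9.28, 13.7 and 18.1 in KO HSC. It reached 77.4, 114 and 102 TPM in WT preMegE and 69.3, 82.7 and 64.8 in KO preMegE, which overlapped. In preCFU-E it was at 104, 120.5 and 97.9 TPM in WT and 91.8, 83.5 and 89.9 in KO, 1.22-fold higher in the WT mean with no overlap. In preMegE the genotypes were thus apart in Rps24-202 and not in Rps24-210, and in preCFU-E they were apart in both. The Rps24-210 gap in preCFU-E was near that of all Rps24 transcripts in TPM (1.20-fold higher in WT) and of Rps24-201 (1.22-fold). In CPM the whole gene overlapped between genotypes there.

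Rps24-201 lay below Rps24-202 in the HSC means and above all other coding forms in the progenitor means. It was at 163, 88.2 and 195 TPM in WT HSC and 303, 397 and 318 in KO HSC. The progenitor means were 2189 ± 293 (SD, n = 3) and 1931 ± 313 TPM in WT and KO preMegE and 2158 ± 323 and 1776 ± 40.05 in WT and KO preCFU-E. KO lay above WT in HSC (2.28-fold) and below WT in preCFU-E (1.22-fold) without overlap, while the preMegE groups overlapped.

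The remaining transcripts were minor by TPM. Rps24-207, which has its own first exon of 258 bases and holds the 20-nt exon, was at 5.01 TPM ± 1.32 (SD, n = 3) in WT preCFU-E, above Rps24-202 there (3.29 ± 0.436). Without it the inclusion in preCFU-E was 3.06% in WT and 21.2% in KO. The retained-intron transcripts Rps24-204 and Rps24-212 together took 29.3% ± 2.89 of Rps24 reads in WT HSC and 20.3% ± 2.98 in KO HSC, against 1.90% to 3.94% in the progenitor groups. As they are long, this came to 29.2 TPM ± 5.11 and 23.2 ± 4.75 in WT and KO HSC. The group means of Rps24-203, Rps24-206, Rps24-208 and Rps24-209 were at most 3.18 TPM.

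**Figure D3:**
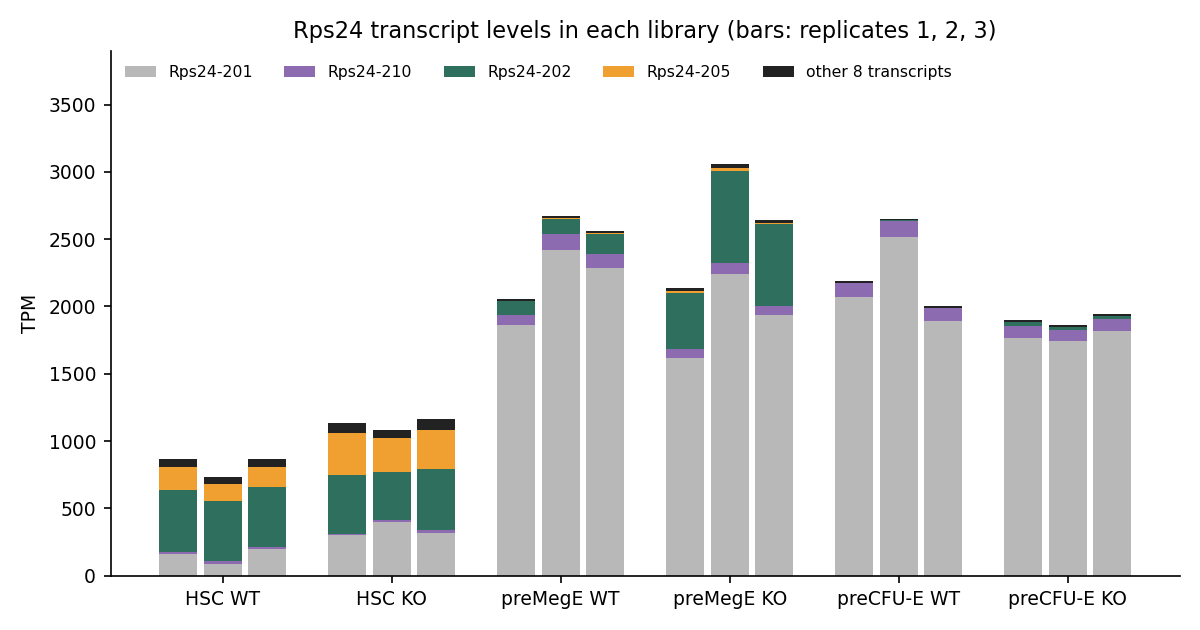
TPM (vertical axis) of Rps24-201, Rps24-210, Rps24-202, Rps24-205 and the other 8 transcripts, stacked, in each library (1 bar per replicate, by group). Rps24-202 and Rps24-205 make up most of the bars in HSC, Rps24-201 most of those in the progenitors, and Rps24-202 is visible in KO preMegE at 417 to 682 TPM.

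To place the exon among others, the same percentage was computed for 8050 internal exons of 3778 genes (mean of at least 5 TPM, mean inclusion of 2% to 98%). An exon was called separated where the groups did not overlap and the means differed by at least 10 points. KO and WT separated 7.86% of exons in HSC, where the Rps24 exon was not separated and ranked 7258 of 8050 by size of change. From a WT HSC mean of 97.2% no rise could reach 10 points, which also bounds this rank. The HSC groups themselves did not overlap. KO and WT separated 5.80% of exons in preMegE, where the Rps24 exon ranked 81, and 5.80% in preCFU-E, where it ranked 326. The WT step from HSC to preMegE separated 25.0% of exons, with the Rps24 exon at rank 294, and that from preMegE to preCFU-E separated 5.02%, with Rps24 at rank 11. In KO the first step separated 19.5% of exons, not the Rps24 exon (rank 3982), and the second 8.51%, with Rps24 at rank 5. As the gene was chosen for this pattern, the ranks are a description only. They also leave out Rps24-201. With Rps24-201 counted as containing the exon, the change lay below the median size of change over these exons in every comparison. Between KO and WT it was 1.21 against 2.72 points in preMegE and 0.0769 against 2.00 points in preCFU-E. Ranks under the other countings of Rps24-201 were not computed. Without 1 library the rank reached 1.90% of the exons for preMegE KO against WT (without preMegE KO 3; 1.01% with all), 0.258% for the second WT step (without preCFU-E WT 2; 0.137% with all) and 0.222% for the second KO step (without preMegE KO 2; 0.0621% with all).

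By Pearson's r of the logit inclusion over the 18 libraries, the exon most like it was a 12-nt exon of Macf1, a cytoskeletal linker gene (r = 0.969). Its mean inclusion was 24.8% and 37.5% in WT and KO HSC, 7.13% and 15.5% in preMegE, and 0.717% and 2.53% in preCFU-E. The genotypes overlapped in HSC (18.4% to 36.0% in WT, 30.1% to 51.7% in KO) and not in the progenitors. A 14-nt exon of Ccnl1, a cyclin gene, followed the populations in the same order (17.9%, 7.81% and 2.83% in WT), as did exons of Mprip, Sh3glb1 and Lrrfip1 (r = 0.929 to 0.932). Exons with an opposite course lay in Tmed5, Map3k7, Ythdc1 and Diaph3 (r = -0.945 to -0.921); that of Map3k7, a kinase gene, went from 18.5% in WT HSC to 32.7% in preMegE and 67.7% in preCFU-E. The 18 points of each r share their libraries, depth and population order.

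The level of the whole gene took another course from its exon. Counted over all transcripts, Rps24 was at 250.4, 234 and 262 CPM in the WT HSC libraries and 275, 266 and 252 in the KO HSC libraries. In preMegE it was at 667, 615 and 598 CPM in WT and 613, 762 and 762 in KO. In preCFU-E it was at 757, 814 and 648 CPM in WT and 717, 786 and 704 in KO. All progenitor libraries lay above all HSC libraries, and the genotypes overlapped within each population. The means were 249 CPM ± 14.1 (SD, n = 3) in WT HSC and 264 ± 11.9 in KO HSC, 627 ± 35.9 and 712 ± 86.2 in preMegE, and 740 ± 84.7 and 735 ± 44.0 in preCFU-E. WT preMegE lay above WT HSC by 1.33 on the log2 scale (SE 0.12) with no overlap, and WT preCFU-E above WT preMegE by 0.24 (SE 0.12) with overlap, a step that was -0.09 in TPM. The median over all genes tested was -0.43 and -0.18 in these WT steps. In KO the same steps were 1.43 and 0.05 for Rps24 and -0.36 and -0.32 for the median. KO and WT overlapped in all 3 populations, with log2 differences of 0.09, 0.19 and -0.01 (SE 0.12 each). With length-scaled counts the HSC groups did not overlap (205 to 219 CPM in KO, 165 to 182 in WT). In TPM, which divides each transcript by its length, KO HSC was 1.37-fold above WT HSC and WT preCFU-E 1.20-fold above KO preCFU-E, both without overlap, so the 2 scales differ in these populations. TPM uses an effective length, with bases taken off the annotated one. For a transcript of another gene these were 298 to 325 bases in HSC and 254 to 294 in the progenitors. Rps24-201 and Rps24-202 are 468 and 519 bases long, and the bases taken off their lengths were not computed. The part of the effective length in the TPM was not tested.

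Per length, Rps24 was among the most abundant messages of the small subunit. By mean TPM it ranked 3 of 32 small-subunit genes in WT HSC (821 ± 78.5 TPM) after Rps27 and Rps6, and 2 of 32 in WT preMegE (2428 ± 326) after Rps4x. In WT preCFU-E, where Rps4x was highest, Rps24 ranked 3 of 32 (2282 ± 334) and lay at 2.44 times the median of the others. Annotated pseudogene copies took few of its reads: the transcripts of 11 copies that match with at least 90% identity over 300 bases or more held at most 2.16% of the Rps24 TPM and 1.20% of its reads in any library. Among them, Gm9320 was highest, at 16.4 TPM. With all reads of these genes added, a further Gm9320 transcript without such a match included, KO HSC 3 went from 252 to 260.3 CPM. Reads that fit the gene and a copy equally may be split between them.

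The level of Ptbp1, the gene the study deleted, was set beside the exon. In HSC, Ptbp1 was at 208 CPM ± 12.5 (SD, n = 3) in WT and 98.1 ± 8.83 in KO (log2 -1.09, SE 0.13, edgeR adjusted p 0.000211). In preMegE it was at 693 ± 95.8 and 203 ± 25.4 (log2 -1.77, SE 0.13, adjusted p 1.20e-07), and in preCFU-E at 1244 ± 117 and 306 ± 10.5 (log2 -2.02, SE 0.13, adjusted p 5.51e-09). Reads therefore remained in the KO, more of them in preCFU-E than in WT HSC. Ptbp1 rose along the WT path, by 1.73 on the log2 scale from HSC to preMegE (adjusted p 1.30e-09) and by 0.84 to preCFU-E (adjusted p 3.03e-05). Inclusion of the Rps24 exon ran the opposite way in WT: 97.2%, 57.0% and 7.28% at Ptbp1 levels of 208, 693 and 1244 CPM. In KO the inclusion was 98.1%, 88.8% and 25.5% beside 98.1, 203 and 306 CPM of reads assigned to Ptbp1, whose content of functional transcript is not known here.

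Ptbp2, whose own mRNA PTBP1 is known to repress, rose in every KO population. It was at 56.0 CPM ± 10.3 (SD, n = 3) in WT and 115 ± 19.5 in KO HSC (log2 1.04, SE 0.17, edgeR adjusted p 0.00583). The differences were 2.22 in preMegE (WT 17.8 and KO 82.7 CPM, adjusted p 3.45e-07) and 3.78 in preCFU-E (WT 10.04 and KO 139 CPM, adjusted p 8.68e-11). It fell along the WT path, by 1.65 and then by 0.81 on the log2 scale. In a fit of the HSC libraries alone the Ptbp2 call in HSC was lost (adjusted p up to 0.466 over the alternatives). Ptbp3 did not pass between KO and WT in any population (log2 -0.08, -0.05 and -0.04). It rose between WT HSC and preMegE (416 to 1104 CPM, log2 1.41, adjusted p 5.91e-08).

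**Figure D4:**
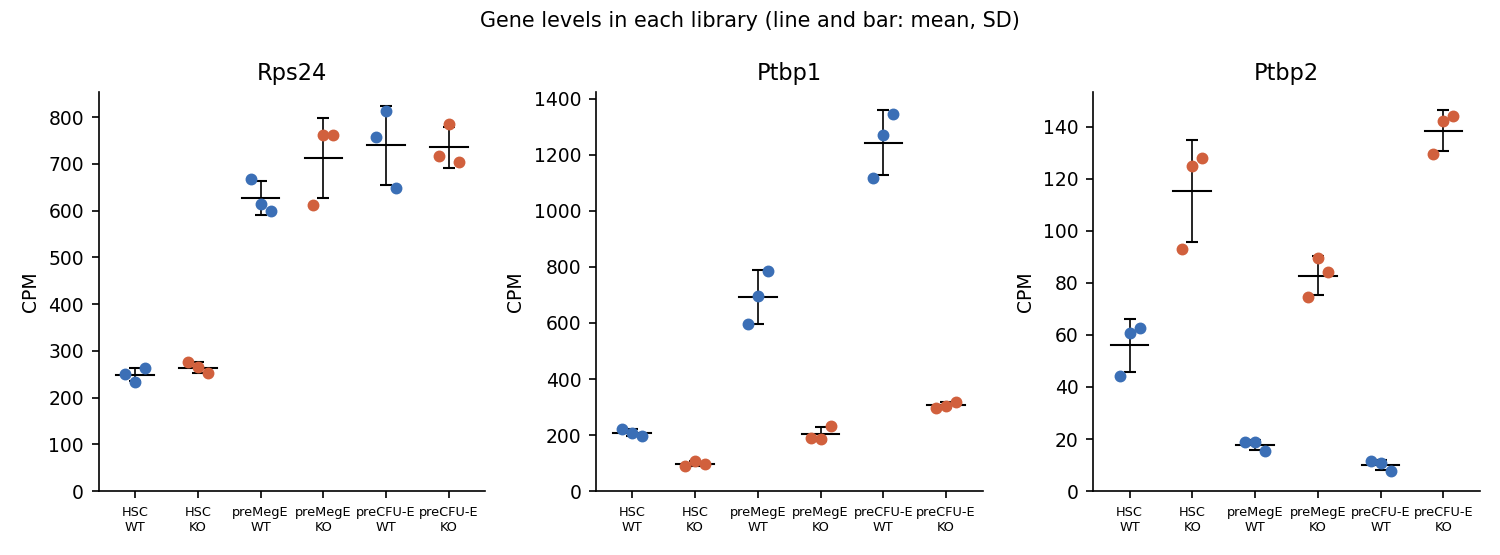
Level in CPM (vertical axes, from 0) of Rps24, Ptbp1 and Ptbp2 in each library by group, with the mean and SD (n = 3). Rps24 KO and WT libraries overlap in every population, while KO libraries lie below WT for Ptbp1 and above WT for Ptbp2 in all 3 populations.

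The other 31 small-subunit ribosomal protein genes were tested with edgeR's quasi-likelihood test, adjusted over 21565 genes. Ribosomal protein genes have many near-identical copies, between which Salmon may split reads. None was called between KO and WT, against 0.844% of all genes for HSC, 0.0603% for preMegE and 0.153% for preCFU-E. At an unadjusted p under 0.05 there was 1 in each population, and DESeq2 called 1, 0 and 0. Their median log2 change was 0.05, 0.12 and 0.05, against 0.01, 0.01 and -0.00438 over all genes.

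Between WT HSC and preMegE, 29 of the 31 rose and 0 fell, against 53.7% of all genes called in either direction. Of all 21565 genes, 5491 rose. The median log2 change of the list was 1.56 against -0.43 over all genes. Large rises were seen in Rps2 (104.7 to 814 CPM, log2 2.96, SE 0.13, adjusted p 1.37e-12) and Rps4x (352 to 1971 CPM, log2 2.49, SE 0.15, adjusted p 1.02e-10). Rps12 (log2 0.50) and Rps21 (0.18) were not called. Rps24, at 1.33, lay below the median of the list. Between WT preMegE and preCFU-E, 22 of the 31 rose and 0 fell, against 26.8% of all genes called in either direction. Of all 21565 genes, 3364 rose. The median of the list was 0.45 against -0.18. Rps12 (54.0 to 96.0 CPM, log2 0.83), Rps2 (0.80) and Rps25 (0.69) had the largest rises, but Rps12 lost its call without any of 4 libraries (adjusted p up to 0.130). This count of small-subunit genes was 9 without preMegE WT 1 and 12 without preMegE WT 2 or WT 3. It was 7 without preCFU-E WT 1 and 8 without preCFU-E WT 2. It was 14 with length-scaled counts, 9 with no filter on low counts and 10 in a fit of these groups alone.

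**Figure D5:**
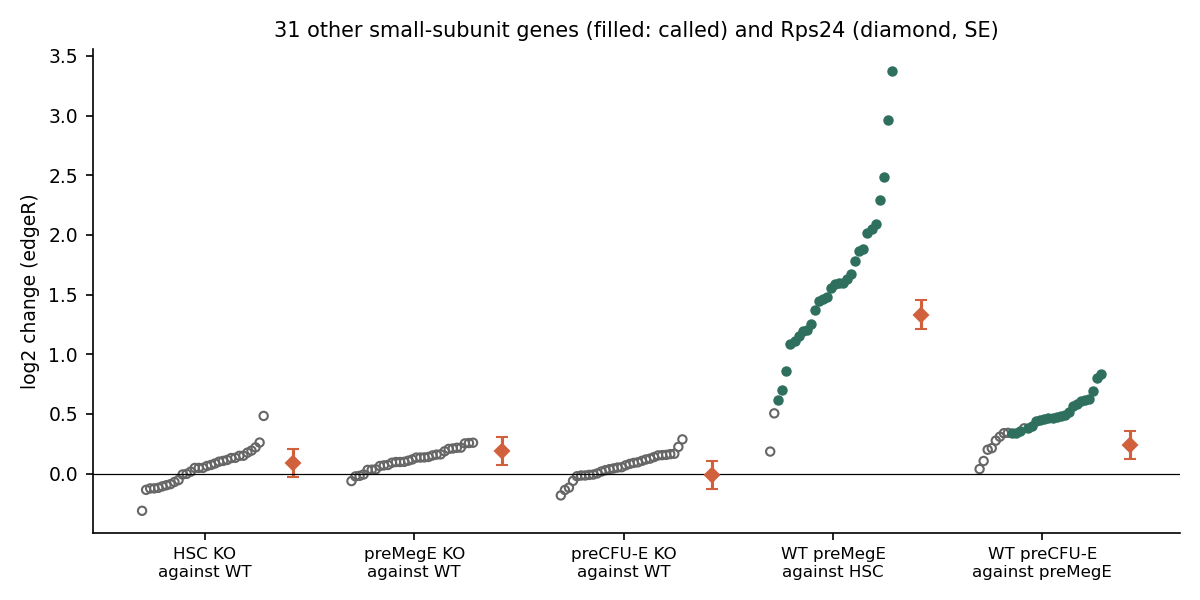
Log2 change (vertical axis) of the other 31 small-subunit genes (circles, filled where called by edgeR) and of Rps24 (diamond with its SE) in 5 comparisons. None is filled for KO against WT, 29 are filled for WT preMegE against HSC and 22 for WT preCFU-E against preMegE.

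Genes tied to Diamond-Blackfan anaemia other than Rps24, mostly ribosomal protein genes, moved with the populations too, and the list shares its Rps genes with the one above. Of 22, none was called between KO and WT by edgeR or DESeq2 (0, 2 and 0 at an unadjusted p under 0.05), beside 0.844%, 0.0603% and 0.153% of all genes called by edgeR. From WT HSC to preMegE 21 rose, beside 53.7% of all genes called in either direction. Among these were Rps7, Rps10, Rps15a, Rps19, Rps20, Rps26, Rps27, Rps28, Rps29, Rpl5, Rpl11, Rpl15, Rpl18, Rpl26, Rpl27, Rpl35, Rpl35a, Heatr3, Tsr2 and the erythroid factor Gata1, with changes from 0.50 for Rpl15 to 3.60 for Gata1 on the log2 scale. Rpl31 was at -0.11 and not called. From WT preMegE to preCFU-E 16 of the 22 rose, beside 26.8% of all genes called in either direction. Without either preCFU-E WT 1, preCFU-E WT 2 or any of the preMegE WT libraries, 7 to 10 rose. Rps7, Rps10, Rps27, Rpl5, Tsr2 and Gata1 were the 6 not called.

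Factors of the small-subunit processome, which assembles the precursor of the subunit, rose in both steps. Of 30, none was called between KO and WT by edgeR or DESeq2 (3, 0 and 0 at an unadjusted p under 0.05), 28 rose from WT HSC to preMegE and 30 from preMegE to preCFU-E. The shares of all genes called in either direction were 0.844%, 0.0603% and 0.153% between KO and WT, and 53.7% and 26.8% in the steps. The largest first-step rises were in Bysl (8.54 to 36.1 CPM, log2 2.08), the methyltransferase gene Fbl (1.94) and Tbl3 (1.92), and the largest second-step rises in Pno1 (19.1 to 61.9 CPM, log2 1.70), Utp4 (1.63) and Tbl3 (1.48). The median log2 change in the steps was 1.30 and 1.13 against -0.43 and -0.18 over all genes. Between KO and WT it was 0.12, -0.18 and -0.000967 in HSC, preMegE and preCFU-E, against 0.01, 0.01 and -0.00438 over all genes. Of the 30, 26, 2 and 15 had a change above 0 in these populations.

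Other known regulators of splicing were tested in the same fit. Of 45 listed, 40 were tested, and none was called between KO and WT by edgeR or DESeq2 (2, 4 and 2 at an unadjusted p under 0.05). The shares of all genes called by edgeR were 0.844%, 0.0603% and 0.153% in HSC, preMegE and preCFU-E, so few calls could be looked for among 40. From WT HSC to preMegE 19 rose and 7 fell, a share of 26 of 40 called beside 53.7% of all genes. Rbfox1 had the largest rise but from a very low level (0.0493 to 0.837 CPM, adjusted p 0.0111), followed by Tra2b (122 to 309 CPM, log2 1.33) and Srsf7 (141 to 346 CPM, log2 1.30), both of the SR and SR-like proteins. Rbfox2 fell from 26.5 to 0.823 CPM (log2 -4.99, SE 0.42, adjusted p 7.56e-09) and Nova1 from 15.2 to 0.947 CPM (log2 -3.99, SE 0.38). Nova2 was also called lower, from 0.321 CPM with all preMegE WT libraries at 0, and lost the call without 3 single libraries: HSC WT 1, preMegE WT 2 or preMegE WT 3 (adjusted p up to 0.283). From WT preMegE to preCFU-E 26 rose, led by Hnrnpll (1.07), U2af1 (1.06) and Srsf1 (1.03), and 4 fell, a share of 30 of 40 called beside 26.8% of all genes. Celf2 fell from 400 to 146 CPM (log2 -1.45, adjusted p 1.86e-07), while the calls for Rbfox1 (0.837 to 0.0651 CPM) and Rbfox2 (0.823 to 0.260 CPM) were each lost without any of several single libraries: preMegE WT 1, 2 or 3 and preCFU-E WT 1 or 3 for Rbfox1, preMegE WT 2 and preCFU-E WT 1 or 2 for Rbfox2.

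The genes whose level was most like that of Rps24 over the 18 libraries, by Pearson's r of log2 CPM, were all ribosomal protein genes. They were Rps15a (r = 0.998), Rpl32, Rpl17, Rps7 and Rps13 (0.992 to 0.994). Rps15a went from 125 CPM in WT HSC to 429 in preMegE and 544 in preCFU-E, the same order as Rps24.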

How the data were processed

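Total RNA of sorted cells was isolated with the RNeasy micro kit and amplified and made into libraries with NuGEN Ovation kits, per the labels' protocols. The authors deposited 1 table per library with 136288 transcripts. Per the submitters' processing notes Salmon 0.12.0 and the builds mm10 and GRCm38.p6 were used; the index, the options and the strandedness are not stated in the labels or files. Per the file headers, each table gives the estimated counts (reads assigned to a transcript, not whole) and the TPM of each transcript, both used as deposited. Of these transcripts 136176 matched GENCODE M21 by identifier and were assigned to genes.

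The percent spliced in was computed from TPM with Python 3.11.15 and pandas 2.3.3. Estimated counts were summed per gene, rounded, and fitted with edgeR 4.0.16 (R 4.3.3; TMM, filterByExpr leaving 21565 genes, 6 group means, quasi-likelihood test, Benjamini-Hochberg, called below 0.05). The edgeR fit was tested on simulated gene counts for preCFU-E KO against WT. The percent spliced in and the sequence searches were not tested in this way. CPM are on TMM-scaled library sizes. Copies were found with BLAST 2.17.0. The alternatives, among them DESeq2 1.42.0, RLE size factors, other filters and leaving out each library, are in the closing section. Rps24, its transcripts' grouping and the gene lists were chosen with earlier results of these data known. Genes were named by rule: every Rps24 transcript and the copies, the PTB family, the 3 largest called rises and falls per list, called Diamond-Blackfan genes, and the 5 exons in each direction and 5 genes most like Rps24. Replicates are labelled biological. The p-values set differences between group means against the spread between replicates, estimated over all 6 groups. A few genes that this rule names are not reported here.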

Additional observations from a re-analysis of the deposited data

Results flagged for a closer look

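The total level of Rps24 in TPM differed from WT in opposite directions in 2 populations. Every KO HSC library lay above every WT HSC library, with means of 1126 and 821 TPM (KO minus WT 304.9), and every KO preCFU-E library lay below every WT preCFU-E library, with means of 1901 and 2282 TPM (-380.6). The difference between populations was not tested. In CPM the KO and WT libraries overlapped in both populations. With length-scaled counts they overlapped in preCFU-E but not in HSC (205 to 219 CPM in KO, 165 to 182 in WT).

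Rps24-201, which ends 3 bases into the 20-nt exon, gave the same opposition: KO minus WT was 190.7 TPM in HSC (339 against 149) and -382.0 TPM in preCFU-E (1776 against 2158), without overlap in either, and this difference was not tested. The retained-intron share of Rps24 reads moved beside it in HSC, 29.3% in WT and 20.3% in KO, and its part in the result was not tested.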

How the results depend on the processing

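The exon differences depend mostly on how Rps24-201 is read and on dividing by length. In the order KO against WT in HSC, preMegE and preCFU-E, WT preMegE against HSC, WT preCFU-E against preMegE, and the same steps in KO, the differences in percentage points were 4.23, 38.2, 4.08, -67.4, -16.5, -33.5 and -50.6 as shares of estimated reads. Rps24-201 was counted as joining over the exon after seeing the data, though its annotated model does not do so. The differences were then -12.2 (reversed), 17.1, 1.23, -73.3, -5.02, -44.0 and -20.9. With Rps24-201 counted as containing the exon, also chosen after seeing the data, HSC stayed within the spread and the others were 1.21, 0.0769, -1.74, -0.714, -1.53 and -1.84. With any overlapping exon counted as containing, they were 1.21, 0.0766, -1.82, -0.715, -1.55 and -1.84. Without Rps24-207, chosen after seeing the data, -53.5 and -67.6 for the later steps in WT and KO were the values that moved by more than the spread. Beyond Rps24-201 itself the cause of these changes was not tested. Leaving out 1 library gave 0.547 to 1.12, 29.1 to 33.8, 17.0 to 19.5, -42.2 to -37.5, -52.4 to -47.7, -10.2 to -8.02 and -64.6 to -61.9.

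The rank of the exon among exons of at least 20 TPM was 0.487% for preMegE KO against WT, 2.47% for preCFU-E KO against WT, and 0.0696% and 0.0348% for the later steps in WT and KO. Without 1 library the ranks that moved ranged from 0.890% to 1.90%, from 0.135% to 0.258% and from 0.0620% to 0.222% for preMegE KO against WT and the later steps in WT and KO. The gene level with length-scaled counts was 0.29 for HSC KO against WT and 2.07 for WT preMegE against HSC on the log2 scale. In TPM it was 0.46, -0.26 in preCFU-E, 1.56 for WT preMegE against HSC and -0.0894 for WT preCFU-E against preMegE (reversed); the cause was not tested.

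Small-subunit genes called for WT preCFU-E against preMegE numbered 14 with length-scaled counts, 9 with no filter and 10 with only these groups, against 22, and 7 to 23 without 1 library. For HSC KO against WT, DESeq2 called 1 and leaving out 1 library gave 0 to 1 (1 without HSC KO 3). Over all alternatives of these results, 193 values stayed within the spread between replicates or, for counts and ranks, within 1.5 times. A further 55 moved and 2 reversed. The 193 include exon inclusion from protein-coding transcripts only. That setting could not change the values, as all transcripts in the percentage are protein coding. Deviations of replicates with the same number correlated at r -0.0381 to 0.242, and in 0 comparisons did all 3 pairs pass an r of 0.1, so the numbers were not taken to pair the samples. With a replicate block in a fit of the groups compared, 0, 0, 0, 29 and 24 small-subunit genes were called, and 0, 62, 514, 10864 and 9706 of all genes; Ptbp1 and Ptbp2 lost their calls in HSC (adjusted p 0.254 for Ptbp1). Transcripts with few reads limit the depth: those with the 20-nt exon had 50.4 to 75.9 reads in WT preCFU-E libraries.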
